A study of Mus musculus with 4 samples.

Results

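In the wild type islets, 575 beta cells held no unique molecular identifier (UMI, 1 tagged RNA molecule) of Mafa, and they are described here as Mafa-zero beta cells. They were chosen from the deposited counts: at least 10% of a cell's UMIs from the insulin genes Ins1 and Ins2, under 1% each from the glucagon gene Gcg and the somatostatin gene Sst, at least 10000 UMIs in all, at most 333 UMIs of the peptide hormone gene Pyy, and 0 UMIs of Mafa. They made up 299 of 5951 cells in wild type 1 and 276 of 5841 cells in wild type 2, among 18612 cells in all 4 libraries. Of the wild type beta cells inside the other limits, they were 8.48% of 3527 (exact binomial 95% interval 7.58 to 9.45) in wild type 1 and 7.76% of 3555 (6.9 to 8.69) in wild type 2. These and all later intervals cover counting error only. Levels of Mafa, Ins1, Ins2, Gcg, Sst and Pyy chose the cells, so they are given as descriptions and not tested.

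Islets of C57BL/6 mice were dissociated with trypsin for 15 minutes at 37 °C after a night in 11 mM RPMI, and single cells were profiled with the 10x Genomics 3′ assay. The knockout libraries (2) came from mice with floxed Sel1L and Cre recombinase expressed from Ins1, and the wild type libraries (2) from mice with floxed Sel1L and no Cre. Both genotypes thus carry the floxed alleles, and no library came from Cre alone, so what Cre does and what the deletion does cannot be told apart. The sample labels give 7 weeks of age and the series text 5 weeks. Wild type libraries held 215467602 and 228515309 UMIs, and knockout libraries 160208775 and 99156230. The labels do not say that libraries came from separate animals, so the spread between these libraries may be technical. P-values of the knockout comparisons measure that spread. Within the wild type the library is a block, which sets differences between libraries aside. P-values there measure how far the group difference varied between the 2 libraries, by edgeR with 1 spread fitted for all genes, and say nothing of spread between animals. Across the libraries 35 cell barcodes occurred in more than 1, and 3 Mafa-zero cells carried one of them. Sel1l itself was counted from 3′ ends, so its level does not check the deletion: it made up 68.5 and 75.8 of every 1000000 UMIs outside Ins1 and Ins2 in Mafa-zero knockout cells and 91.5 and 95 in Mafa-zero wild type cells.

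MAFA is a basic leucine zipper transcription factor that, among islet cells of the adult mouse, marks mature beta cells. It binds the C1 element of insulin promoters and works beside PDX1 and NEUROD1 on genes of glucose sensing and insulin secretion. SEL1L steadies the ubiquitin ligase HRD1, and together they clear misfolded proteins from the endoplasmic reticulum (ER) in what is called ER-associated degradation. The comparison with the knockout asks how far wild type beta cells that merely lack Mafa UMIs look like beta cells in which this machinery was deleted.

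Ins1 and Ins2, used to choose both groups, together took a median 66.1% and 68.2% of UMIs in Mafa-zero cells, against 66.3% and 68.1% in Mafa-positive cells. Within the insulin UMIs, Ins1 made up a median 28.5% and 27.2% in Mafa-zero cells and 29.2% and 27.0% in Mafa-positive cells. Iapp, the islet amyloid gene, was not used by the choice. It stood at 154000 and 167000 CPM, here the UMIs of a gene for every 1000000 UMIs outside Ins1 and Ins2, summed over the cells of a library, in Mafa-zero cells, against 152000 and 168000 in Mafa-positive cells. Of the 3 beta cell markers only Iapp was free of the choice. At least 60% of UMIs came from insulin in 76.9% and 83.7% of Mafa-zero cells, against 81.7% and 92.2% of Mafa-positive cells. CPM has this meaning throughout the results.

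The share without Mafa differed by depth. In wild type 1, 40 of 127 beta cells under 20000 UMIs lacked Mafa (31.5%), then 54 of 204 from 20000 UMIs (26.5%), 84 of 600 from 30000 (14%), 105 of 1952 from 40000 (5.38%) and 16 of 644 from 60000 (2.48%). Wild type 2 gave 44.7%, 20.5%, 13.4%, 6.65% and 2.21% over the same ranges. The share was lower in each deeper range of both libraries and did not reach 0 in the deepest cells. Wild type beta cells held a mean of 10.1 and 9.77 Mafa UMIs, spread widely: cells with 1 UMI were 7.6% and 8.35%, and cells with over 20 UMIs 13.1% and 13.0%. Had every cell from 40000 to 60000 UMIs held the mean Mafa level of that range, counting alone would leave 0.0077% and 0.014% of them at 0. In that same range, 43.1% and 38.0% of knockout beta cells had no Mafa UMI, a count taken with no limit on Pyy. These knockout cells held a mean of 1.55 and 1.89 Mafa UMIs. Had every one held the mean level of the range, counting alone would leave 22% and 15% of them at 0.

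**Figure D1:**
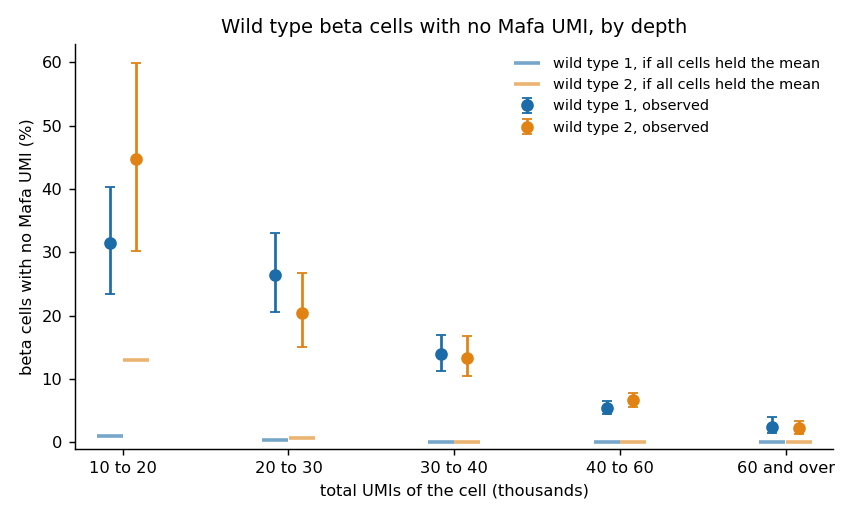
Share of wild type beta cells with no Mafa UMI (y axis, %) by total UMIs of the cell (x axis, in units of 1000 UMIs); points are observed shares with exact binomial 95% intervals, and dashes the share that counting would give if every cell of the range held the range's mean Mafa level. Observed shares fall from the shallowest range to 2.48% and 2.21% in the deepest, and stand above the dashes in every range of both libraries.

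At the edge of the choice, the 268 and 297 wild type beta cells with 1 Mafa UMI had 205 and 181 CPM of the glucose transporter gene Slc2a2, close to the 165 and 177 of the Mafa-zero cells. The 12 and 11 Mafa-zero cells within 100 UMIs of the Pyy limit had median insulin shares of 61.4% and 58.5%, and the 12 and 5 cells up to 100 UMIs past it 59.4% and 52.1%. For the comparisons, each Mafa-zero cell was set beside up to 3 Mafa-positive cells of its own library within 10% of its total UMIs, which gave 858 and 795 cells. Median totals were 36350 and 41602 UMIs in Mafa-zero cells and 37411.5 and 42140 in Mafa-positive cells. UMIs were summed per library and group and compared with edgeR, with the library as a block and Benjamini-Hochberg adjustment over 11954 genes. At an adjusted p under 0.05, 425 genes were higher in Mafa-zero cells (3.56%) and 364 lower (3.05%), together 6.6%, with a median log2 change of 0.00 over all genes. Scaling by library size alone moved that median to -0.03 and gave 285 higher and 371 lower genes. edgeR found 1 spread for all genes in this fit, so its p-values are small for genes that a few cells carry, and the tally varied: DESeq2 called 32 higher and 41 lower, all shared with edgeR, and edgeR without the block called 15 and 17. For the genes described, the share of UMIs in the 10 cells that held most of them is therefore given where it was large.

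Genes of glucose sensing and the mature beta cell were lower in Mafa-zero cells. Of 32 beta identity genes tested, 19 were lower and 1 higher, against 3.05% and 3.56% of all genes, with a median log2 change of -0.26. Of 15 genes described as depending on MAFA, 11 were lower and none higher (median -0.41). DESeq2 called 12 and 8 of these genes lower, and edgeR without the block 4 and 2. Both lists were drawn up with earlier results of these data known.

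Slc2a2 (chr3:28697903-28731359, plus strand), which encodes the glucose transporter GLUT2, had 165 and 177 CPM in Mafa-zero cells, against 315 and 346 in Mafa-positive cells. Both Mafa-zero sums lay well below both Mafa-positive sums. The log2 change was -0.93 ± 0.0536 (SE), with an adjusted p of 5.9e-63 by edgeR and 3e-14 by DESeq2, and the call held in 18 of 18 alternatives. The median cell had 85.2 and 93.4 CPM in Mafa-zero cells and 252 and 258 in Mafa-positive cells, so the difference ran through the bulk of the cells. After thinning each cell to 10000 UMIs, 34.8% and 38.0% of Mafa-zero cells kept an Slc2a2 UMI, against 57.0% and 54.0% of Mafa-positive cells (61.9% and 62.7% against 84.8% and 86.2% before thinning). Endothelial cells, which should lack it, kept one in 1.47% and 1.43% of cells, with median totals of 15300 and 14738.5 UMIs before thinning.

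G6pc2 (chr2:69211073-69227841, plus strand) encodes a glucose-6-phosphatase subunit of beta cells. It had 506 and 406 CPM in Mafa-zero cells, against 789 and 727 in Mafa-positive cells (log2 change -0.71 ± 0.0436, adjusted p 1.3e-56 by edgeR). Ucn3 (chr13:3940688-3945349, minus strand), a peptide that mature beta cells secrete to act on delta cells, had 191 and 146 CPM in Mafa-zero cells and 326 and 278 in Mafa-positive cells (log2 change -0.82 ± 0.0543, adjusted p 4.8e-48 by edgeR). For both genes the groups did not overlap, and without the block their adjusted p was 0.057 and 0.065 in edgeR. The prolactin receptor gene Prlr (chr15:10177238-10349180, plus strand) had 289 and 296 CPM in Mafa-zero cells, against 522 and 508 in Mafa-positive cells (log2 change -0.79 ± 0.0473, adjusted p 2.4e-59 by edgeR, 0.015 without the block).

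The sequences before Slc2a2 and G6pc2 are shown because both genes were lower. Letters that MAF factors are known to bind were found in 1 window of G6pc2, before an inner start, and not in the window of Slc2a2. TGCTGAC, part of the MAF response element, was searched on both strands in the 250 bases before each RefSeq start. It occurred in 1252 of 32851 windows (3.81%) and in 1 of 15 windows of the MAFA-dependent genes (6.67%), which was that of G6pc2. Both windows are of GRCm38, plus strand. Capitals mark TGCTGAC read on the other strand; the G6pc2 window, chr2:69219699-69219948, precedes an inner start of the gene, and the Slc2a2 window is chr3:28697653-28697902.
G6pc2: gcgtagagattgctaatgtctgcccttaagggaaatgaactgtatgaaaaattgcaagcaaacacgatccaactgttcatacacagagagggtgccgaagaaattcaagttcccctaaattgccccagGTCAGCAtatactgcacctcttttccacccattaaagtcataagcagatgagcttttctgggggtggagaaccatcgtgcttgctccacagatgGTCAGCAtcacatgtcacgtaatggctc
Slc2a2: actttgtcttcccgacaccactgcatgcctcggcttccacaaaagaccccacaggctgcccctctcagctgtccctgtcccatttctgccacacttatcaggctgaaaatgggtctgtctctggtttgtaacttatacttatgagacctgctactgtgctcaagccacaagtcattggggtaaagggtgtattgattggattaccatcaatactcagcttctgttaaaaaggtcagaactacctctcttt
A match describes letters and not binding. The window before the outer start of G6pc2, chr2:69210823-69211072, held none, and neither did the windows before Prlr and Ucn3. A window is too short to speak for distant enhancers, so nothing about MAFA follows from its absence.

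Some beta cell transcription factor genes were also lower. Pdx1, needed for the pancreas to form and for beta cells to keep their identity, had 149 and 142 CPM in Mafa-zero cells and 206 and 197 in Mafa-positive cells (log2 change -0.45, adjusted p 2.2e-12 by edgeR and 0.04 by DESeq2). Nkx6-1, which represses alpha cell genes in beta cells, had 303 and 290 CPM in Mafa-zero cells and 409 and 408 in Mafa-positive cells (log2 change -0.44, adjusted p 1.2e-17 by edgeR). Neither gene's groups overlapped. Neurod1, at 309 and 239 in Mafa-zero cells and 358 and 302 in Mafa-positive cells, was called by edgeR (log2 change -0.25, adjusted p 2.9e-05) and not by DESeq2 (0.92), and its groups overlapped. Chosen after their values were seen, Nkx2-2 was lower by edgeR (log2 change -0.41, adjusted p 8.4e-09 and 0.24 by DESeq2), while Isl1, Foxa2 and Hnf4a gave no call, with log2 changes from -0.12 to 0.00.

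Among genes that make and release insulin, Pcsk1, the prohormone convertase that begins the cutting of proinsulin, had 262 and 255 CPM in Mafa-zero cells and 372 and 328 in Mafa-positive cells (log2 change -0.41, adjusted p 3.3e-14 by edgeR). Slc30a8, the zinc transporter of insulin granules, had 533 and 607 in Mafa-zero cells and 660 and 768 in Mafa-positive cells (log2 change -0.30, adjusted p 2.6e-10 by edgeR). Sytl4, which tethers insulin granules, was lower at 112 and 121 in Mafa-zero cells against 200 and 200 in Mafa-positive cells. Chgb, a granule protein, went the other way, at 2140 and 1730 in Mafa-zero cells and 1490 and 1350 in Mafa-positive cells (log2 change 0.46, adjusted p 1.8e-08 by DESeq2). The rise was not seen in wild type 1 among cells of 40000 to 60000 UMIs. There Chgb had 1378 CPM with no Mafa UMI, within the 1330 to 1506 of cells grouped by higher Mafa counts. In wild type 2 it had 1367 with no Mafa UMI, against 1161 to 1327 in such groups. Of 24 granule and exocytosis genes, 5 were higher and 6 lower, with a median of -0.02, against 3.56% and 3.05% of all genes.

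Of the 10 largest falls among genes of at least 50 counts in 1000000, several have no glucose-sensing role. Tmem215, a membrane protein gene, had 120 and 114 CPM in Mafa-zero cells and 216 and 199 in Mafa-positive cells. Lpl, the lipoprotein lipase, had 139 and 162 in Mafa-zero cells and 253 and 227 in Mafa-positive cells. Gng12, a G protein gamma subunit, and Kdm2b, a histone demethylase, were lower by 0.66 and 0.69 on the log2 scale. Nnat, a small membrane protein of the beta cell ER, differed more between libraries than between groups, at 162 and 60.9 in Mafa-zero cells and 278 and 92.2 in Mafa-positive cells, though lower in each library (log2 change -0.69, adjusted p 0.84 by edgeR without the block).

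**Figure D2:**
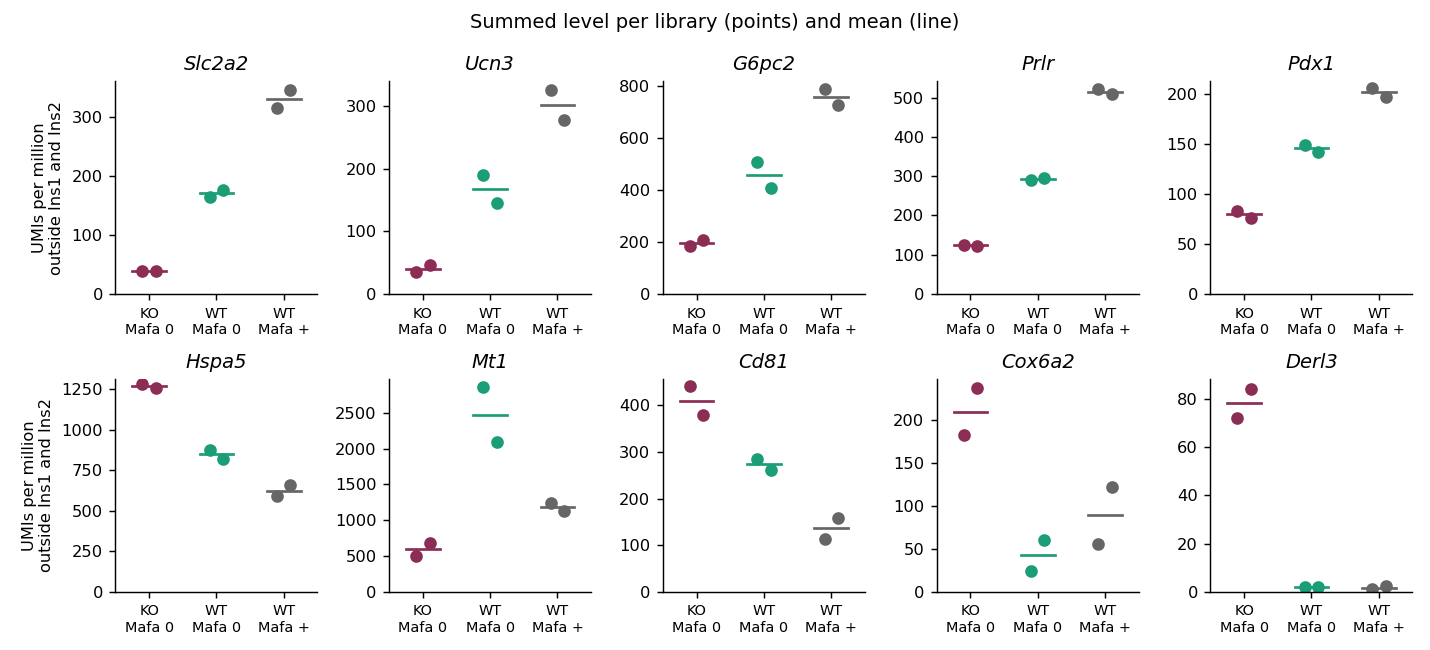
Summed level of 10 genes (y axes, CPM outside Ins1 and Ins2, each from 0) in Mafa-zero knockout, Mafa-zero wild type and Mafa-positive wild type beta cells; points are the 2 libraries and lines their mean. Slc2a2, Ucn3, G6pc2, Prlr and Pdx1 stand lower in Mafa-zero than in Mafa-positive wild type cells and lower still in the knockout, while Derl3 is near 0 in both wild type groups.

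Metallothionein genes were higher in Mafa-zero cells. Mt1 (chr8:94179082-94180327, plus strand), which binds zinc and copper, had 2860 and 2090 CPM in Mafa-zero cells, against 1240 and 1130 in Mafa-positive cells. Mt2, its neighbour and close relative, had 409 and 269 in Mafa-zero cells and 166 and 142 in Mafa-positive cells. Both groups stood apart for both genes, with log2 changes of 1.07 ± 0.0378 and 1.15 and an adjusted p for Mt1 of 4.2e-167 by edgeR, 2.5e-07 by DESeq2. The 10 cells with most Mt1 held 32.5% and 30.7% of it among the Mafa-zero cells, but the median cell also differed, at 1130 and 763 CPM in Mafa-zero cells and 494 and 453 in Mafa-positive cells.

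Cd81, a tetraspanin known as a surface marker of immature mouse beta cells, had 285 and 262 CPM in Mafa-zero cells and 114 and 159 in Mafa-positive cells (log2 change 1.04 ± 0.0546). The adjusted p was 4.7e-76 by edgeR, 0.098 by DESeq2 and 0.057 by edgeR without the block. After thinning, 48.2% and 46.4% of Mafa-zero cells and 26.0% and 33.6% of Mafa-positive cells kept a Cd81 UMI; macrophages and endothelial cells make Cd81 themselves, so neither shows its background. Tspan8, another tetraspanin and listed among PP cell markers, had 132 and 121 in Mafa-zero cells and 64.9 and 60.9 in Mafa-positive cells (log2 change 1.03 ± 0.0732, adjusted p 8.8e-42 by edgeR, 2.3e-08 by DESeq2), and was called in 18 of 18 alternatives. Txnip, the thioredoxin inhibitor that glucose induces, had 253 and 248 in Mafa-zero cells and 164 and 133 in Mafa-positive cells (log2 change 0.78, adjusted p 8e-43 by edgeR). Of 13 immature or dedifferentiated beta cell genes tested, 6 were higher and 1 lower (median 0.52), against 3.56% and 3.05% of all genes. DESeq2 called 2 higher and none lower, as did edgeR without the block, and in cells with no sign of another type, defined below, 3 of 9 were higher (median 0.19). The list shares genes with the marker lists of other cell types, among them Ppy with PP cells and Rbp4 with delta cells. Its count is therefore not independent of theirs and does not tell immaturity from RNA of those cell types.

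Other genes of that kind rested on few cells. Aldh1a3, an enzyme of dedifferentiated beta cells, had 1.62 and 2.20 CPM in Mafa-zero cells against 0.0908 and 0.559 in Mafa-positive cells, with every UMI of the Mafa-zero cells inside 10 cells. Neurog3, the factor of endocrine progenitors, gave no call, at 1.62 and 2.20 in Mafa-zero cells and 0.908 and 0.279 in Mafa-positive cells. Nupr1, a stress-induced chromatin protein, was at 93.4 and 458 in Mafa-zero cells and 118 and 305 in Mafa-positive cells, below the Mafa-positive cells in wild type 1 and above them in wild type 2. Npy also changed sign between the libraries.

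Genes of the PP cell, which makes pancreatic polypeptide, were also higher in Mafa-zero cells. Ppy had 2920 and 1560 CPM in Mafa-zero cells and 688 and 648 in Mafa-positive cells, and its 10 fullest cells held 52.3% and 54.4% of the Mafa-zero sum. At least 100 UMIs of Ppy or Pyy were found in 40 of 299 and 33 of 276 Mafa-zero cells, against 27 of 858 and 12 of 795 Mafa-positive cells. Summed PP markers (8 genes with Pyy among them, 1 at 0 in each Mafa-zero sum) stood at 5700 and 3920 CPM in Mafa-zero cells and 1680 and 1480 in Mafa-positive cells. Pyy alone, at 2330 and 1990 in Mafa-zero cells and 707 and 599 in Mafa-positive cells, was bounded by the choice itself and gave a large part of that sum. Of the 5 other PP markers tested, 4 were higher and none lower, 3 of them by DESeq2, against 3.56% and 3.05% of all genes by edgeR. The part of cells rich in PP hormone RNA in the other differences is measured below by leaving such cells out.

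Markers of further cell types were checked in the same way, beside 3.56% higher and 3.05% lower over all genes. Summed macrophage markers were 334 and 326 CPM in Mafa-zero cells and 169 and 83.1 in Mafa-positive cells, with 9 of 10 genes called higher. DESeq2 called 1 of them higher and edgeR without the block none. Of the macrophage marker UMIs of Mafa-zero cells, 78.5% and 84.3% lay in 10 cells. At least 3 macrophage UMIs were found in 13.4% and 6.88% of Mafa-zero cells, against 15.7% and 12.7% of Mafa-positive cells. Endothelial markers were 53.3 and 48.0 in Mafa-zero cells and 25.4 and 46.1 in Mafa-positive cells (3 of 10 higher), and delta cell markers 541 and 459 against 352 and 266 (2 of 2 tested higher). Alpha cell markers, at 3250 and 3100 in Mafa-zero cells and 3150 and 3070 in Mafa-positive cells, were close in sum, though 4 of 7 tested genes were higher and 1 lower. Of acinar markers, 8 and 6 of 10 genes stood at 0 in Mafa-zero cells, and of ductal markers 2 of 7 were higher and 1 lower. Of 3 stromal genes tested 1 was lower, and none of 3 Schwann genes was called. Only 1 lymphoid gene was tested, and it was higher (log2 change 0.68). At least 3 lymphoid UMIs were found in 15.1% and 10.5% of Mafa-zero cells, against 7.46% and 5.66% of Mafa-positive cells. Of the 8 lymphoid genes listed only 4 were in the counts, and 3 and 2 of these stood at 0 in Mafa-zero cells. Scrublet, which scores doublets, called 6 and 9 of the Mafa-zero cells (2.01% and 3.26%), against 4.2% and 4.91% of Mafa-positive cells.

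An alternative chosen after seeing the data kept only beta cells with no such sign: at most 10 UMIs each of Ppy and Pyy, fewer than 2 UMIs of cell cycle genes, under 3 UMIs from each of the endothelial, macrophage, stromal, Schwann, acinar and lymphoid marker lists, and no Scrublet call. That left 110 and 118 Mafa-zero cells, matched anew to 328 and 342 Mafa-positive cells, and 55 higher and 60 lower genes, of which 102 were among the calls over all cells with the same direction. Slc2a2 (log2 change -0.57, adjusted p 6e-06 by edgeR), G6pc2 (-0.40) and Ucn3 (-0.54) were smaller in size there. Zinc transporter Slc30a8 went to -0.07 and Txnip to 0.07, neither of them called. Ppy and the macrophage markers were bounded by this choice of cells, so their values there are not read. Mt1 (1.14), Tspan8 (1.04), Cd81 (0.74) and Hspa5 (0.74) were called there too. Of the beta identity genes 11 of 32 were lower and none higher, beside the 60 lower and 55 higher of all 10322 genes tested there.

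The ER chaperone BiP binds unfolded proteins, and its gene Hspa5 (chr2:34771970-34777547, plus strand) had 872 and 822 CPM in Mafa-zero cells and 588 and 657 in Mafa-positive cells. Both Mafa-zero sums lay above both Mafa-positive sums, and the log2 change was 0.47 ± 0.0414 (adjusted p 3.4e-27 by edgeR, 1.1e-05 by DESeq2, 0.16 by edgeR without the block). The rise sat in part in a few cells: 10 cells held 39.1% and 20.6% of the Mafa-zero UMIs, and the median cell had 521 and 647 CPM in Mafa-zero cells and 491 and 559 in Mafa-positive cells. At the 90th percentile the cell had 1400 and 1510 in Mafa-zero cells against 1100 and 1260 in Mafa-positive cells. Of 38 genes for ER chaperones and the unfolded protein response, 7 were higher and 2 lower (median 0.05), Creld2, a secreted stress-induced chaperone, being among the higher at 74.5 and 62.6 in Mafa-zero cells and 42.0 and 51.5 in Mafa-positive cells. Both lower genes were oxidases of protein folding, Ero1lb and Ero1l (named after its value was seen), and the beta cell form Ero1lb was clearly lower, at 306 and 404 CPM in Mafa-zero cells and 544 and 645 in Mafa-positive cells (log2 change -0.73, adjusted p 1e-53 by edgeR). Over all genes 3.56% were higher, and the number higher in this list was 1 with DESeq2, 2 with edgeR from 20000 UMIs and 0 with edgeR without the block. Of 30 ER degradation genes 2 were higher and 1 lower. Sel1l gave no call, at 91.5 and 95 in Mafa-zero cells and 105 and 105 in Mafa-positive cells (log2 change -0.15, adjusted p 0.27 by edgeR).

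Genes of oxidative phosphorylation, the proteasome and cholesterol synthesis were called within the wild type at near the 6.6% of all genes. Oxidative phosphorylation had 1 higher and 2 lower genes of 56, the proteasome 2 higher and none lower of 31, and cholesterol synthesis none higher and 2 lower of 22. Integrated stress response genes were 4 higher and 8 lower of 34, against 3.56% and 3.05% of all genes, but DESeq2 called 1 higher and 1 lower, and edgeR without the block 1 higher and none lower. Among the lower ones by edgeR was Atf5, a survival factor of stressed beta cells, at 263 and 277 in Mafa-zero cells against 366 and 382 in Mafa-positive cells. The median mitochondrial share of UMIs, a sign of RNA quality, was 1.88% and 1.74% in Mafa-zero cells and 1.88% and 1.86% in Mafa-positive cells. After thinning to 10000 UMIs the median cell showed 1587 and 1508 genes in Mafa-zero cells and 1602 and 1504 in Mafa-positive cells.

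The difference was not a step at 0. Among wild type beta cells of 40000 to 60000 UMIs, Slc2a2 had 173, 218, 250, 323, 365 and 409 CPM in wild type 1 as Mafa went through 0, 1 to 2, 3 to 5, 6 to 10, 11 to 20 and over 20 UMIs. Wild type 2 gave 181, 222, 296, 355, 387 and 429 over the same classes. The values climbed at every step in both libraries, and Cd81 declined at every step, to 59.7 and 107 CPM in the cells richest in Mafa, against 170 and 221 in those with none. Hspa5 had no such order: it was 856 and 724 with no Mafa, lowest in classes between, and 663 and 740 in the richest. Sel1l stayed between 92.5 and 113 in wild type 1 and between 94.7 and 108 in wild type 2. A cell's Mafa and its other UMIs share 1 library preparation, so these series describe cells and not replicates.

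**Figure D3:**
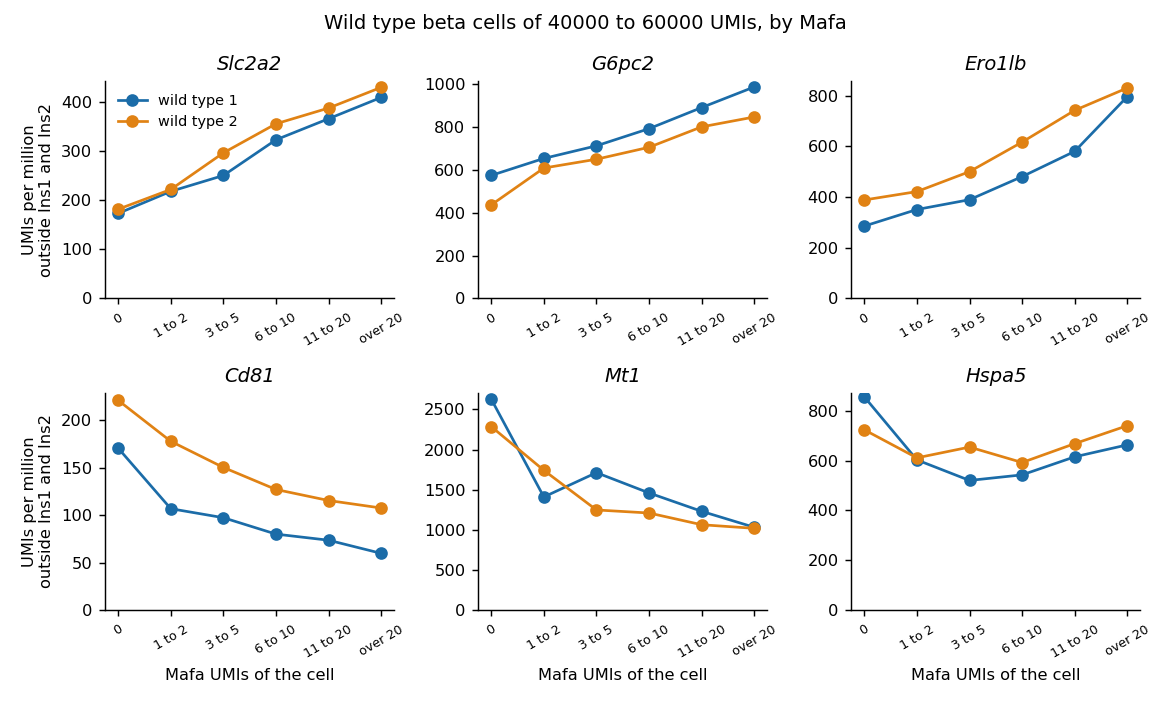
Summed level of 6 genes (y axes, CPM outside Ins1 and Ins2, from 0) in wild type beta cells of 40000 to 60000 UMIs, by the Mafa UMIs of the cell (x axis); each line is 1 library. Slc2a2 climbs from 173 and 181 with no Mafa UMI to 409 and 429 above 20, Cd81 declines, and Hspa5 follows no such order.

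The knockout beta cells differed from Mafa-positive wild type cells far more widely. The 569 and 525 knockout cells were matched on total UMIs and had any Mafa count and any Pyy count. By edgeR 2090 genes were higher (16.2%) and 1982 lower (15.4%), together 31.7%, of 12863 tested. Without knockout replicate 2 these were 1337 and 1250. Insulin took a smaller share of UMIs in the knockout, and scaling by library size alone, which counts insulin, moved the median change of all genes by 0.90 and called 10777 genes higher and 207 lower. Knockout changes below are thus relative to the median gene, whose log2 change was 0.01.

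To set the Mafa-zero difference beside the knockout change without shared wild type cells, the first was taken within 1 wild type library and the second against the Mafa-positive cells of the other. Both versions use the same knockout cells. Of 161 genes lower in the knockout by at least 1 log2 unit against wild type 2, 129 (80.1%) were lower in Mafa-zero cells of wild type 1, with a median log2 difference of -0.30. Of 178 genes higher in the knockout by as much, 137 (77.0%) were higher in those Mafa-zero cells (median 0.21). The other version gave 125 of 163 lower (76.7%, median -0.28) and 149 of 187 higher (79.7%, median 0.22). Over all 8196 genes 49.7% and 49.4% were lower, and the median was 0.00. The medians were well below the knockout changes in size. The shares depend on the scaling: by library size alone 43.3% and 59.3% of the genes higher in the knockout were higher in Mafa-zero cells, against 36.6% and 47.7% of all genes, and in wild type 1 their median turned to -0.03. Across genes, which are not independent, Pearson's r was 0.28 and 0.22 and Spearman's rho 0.19 and 0.24.

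**Figure D4:**
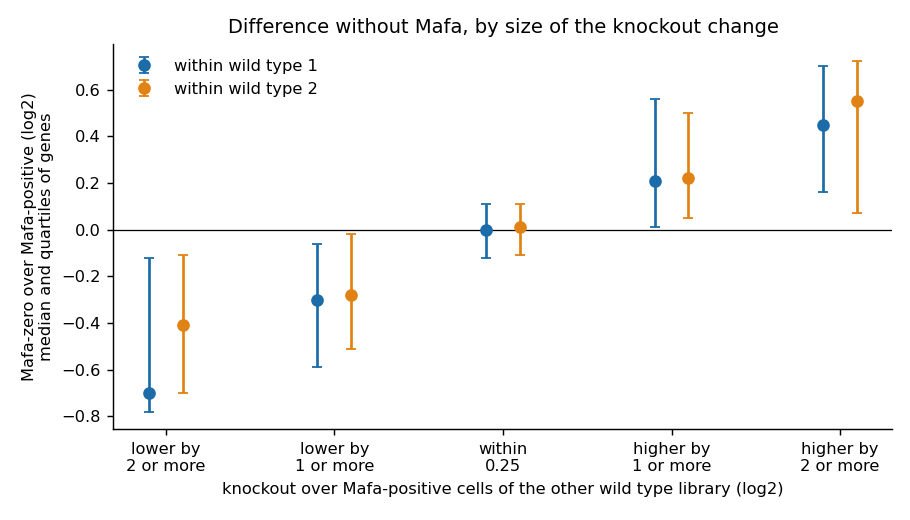
Log2 difference of Mafa-zero from Mafa-positive cells within 1 wild type library (y axis, median and quartiles of genes) for genes grouped by their log2 change in the knockout against the other wild type library (x axis). Genes lower by at least 1 in the knockout have medians of -0.30 and -0.28, and genes higher by at least 1 have medians of 0.21 and 0.22.

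A direct comparison asked what still differed between the genotypes once neither had a Mafa UMI. If every beta cell of a library held its mean Mafa level, counting alone would leave 25% and 14% of knockout cells at 0. For the wild type this was 0.25% and 0.16%, so 0 UMIs need not mean the same Mafa level in both genotypes. Mafa-zero knockout beta cells of matched depth (566 and 484 cells) were set against the Mafa-zero wild type cells with edgeR. The Mafa-zero wild type cells enter this comparison and the one within the wild type alike, so values of the 2 are given side by side and not as independent of each other. Of 12326 genes tested, 1429 were higher in the knockout (11.6%) and 1372 lower (11.1%), together 22.7%. The median insulin share was 35.7% and 40.3% in Mafa-zero knockout cells and 66.1% and 68.2% in Mafa-zero wild type cells. Here library size alone moved the median by 0.89 and called 10200 higher and 141 lower.

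Beta cell genes that were already lower in Mafa-zero wild type cells were lower again in the knockout. Slc2a2 had 39.7 and 39.6 CPM in Mafa-zero knockout cells, against 165 and 177 in Mafa-zero wild type cells (log2 change -2.10 ± 0.0826, adjusted p 1.2e-06 by edgeR). Ucn3 had 35.3 and 46.0 in the knockout and 191 and 146 in the wild type (-2.05 ± 0.14), and G6pc2 185 and 209 against 506 and 406 (-1.21 ± 0.103). Scaled by library size alone, these 3 had log2 changes of -1.21, -1.17 and -0.32. Prlr (-1.24), Pcsk1 (-1.23) and the phosphatase inhibitor gene Ppp1r1a (-2.76) kept their direction likewise, whereas Pdx1 (-0.86), Nkx6-1 (-0.65), Slc30a8 (-0.79) and Ero1lb (-0.86) did not: by library size alone they gave 0.03, 0.23, 0.09 and 0.03. Of 32 beta identity genes 19 were lower in the knockout, against 11.1% of all genes, and 9 of the 19 were also below 0 by library size. Iapp, level across the wild type groups, had 100000 and 94400 CPM in Mafa-zero knockout cells and 154000 and 167000 in Mafa-zero wild type cells (log2 change -0.71, 0.17 by library size).

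Many ER chaperone and ER degradation genes were higher in the knockout. Of 38 chaperone and unfolded protein response genes 28 were higher in the knockout and 1 lower (median 0.61), against 11.6% and 11.1% of all genes. Of 30 ER degradation genes 16 were higher and 1 lower. The integrated stress response list was more mixed, with 13 higher and 5 lower of 34 (median 0.11). Derl3, a channel protein of ER degradation that stress induces, had 72.2 and 84.3 CPM in Mafa-zero knockout cells, against 1.90 and 1.92 in Mafa-zero wild type cells (log2 change 5.35 ± 0.195, adjusted p 7.9e-07 by edgeR). After thinning, 31.4% and 37.4% of the knockout cells and 0.669% and 1.45% of the wild type cells kept a Derl3 UMI (70.1% and 77.3% against 2.01% and 2.54% before thinning). Areg, the growth factor amphiregulin, had 124 and 151 in the knockout and 0.271 and 0.549 in the wild type, where it rested on 1 and 2 UMIs. Mafa-zero wild type cells did not differ from Mafa-positive ones by a call for Derl3 (1.90 and 1.92 against 1.09 and 2.33 CPM), and Areg was too low there to be tested. Hspa5 was again higher in the knockout, at 1280 and 1260 in Mafa-zero knockout cells and 872 and 822 in Mafa-zero wild type cells (log2 change 0.59 ± 0.0752, adjusted p 0.00076 by edgeR).

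Some genes went opposite ways in the wild type cells and the knockout. Mt1 had 502 and 681 CPM in Mafa-zero knockout cells and 2860 and 2090 in Mafa-zero wild type cells (log2 change -2.06 ± 0.159, -1.18 by library size), whereas it was higher in Mafa-zero than in Mafa-positive wild type cells. Cox6a2, a muscle-type subunit of cytochrome oxidase, had 182 and 237 in Mafa-zero knockout cells and 24.1 and 60.7 in Mafa-zero wild type cells (log2 change 2.31 ± 0.274, adjusted p 0.00053 by edgeR). Mafa-positive wild type cells had 55.6 and 122 of it, so within the wild type it was lower in Mafa-zero cells in each library (log2 change -1.05, adjusted p 7.4e-29 by edgeR), although the sums of the 2 groups overlapped. Oxidative phosphorylation genes as a list were 2 higher and 17 lower of 56 in the knockout, and proteasome genes none higher and 22 lower of 31. Over all genes 11.6% were higher and 11.1% lower. Both lists' directions are relative to the median gene: by library size alone no gene of either list was lower, and 56 and 29 were higher. PP hormone RNA set the groups apart too, with 100 or more UMIs of Ppy or Pyy in 492 of 566 and 340 of 484 Mafa-zero knockout cells against 40 of 299 and 33 of 276 Mafa-zero wild type cells. The knockout cells had no limit on Pyy, and the mitochondrial share was 3.83% and 3.77% in them against 1.88% and 1.74%, and the part of both in these differences was not tested.

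**Figure D5:**
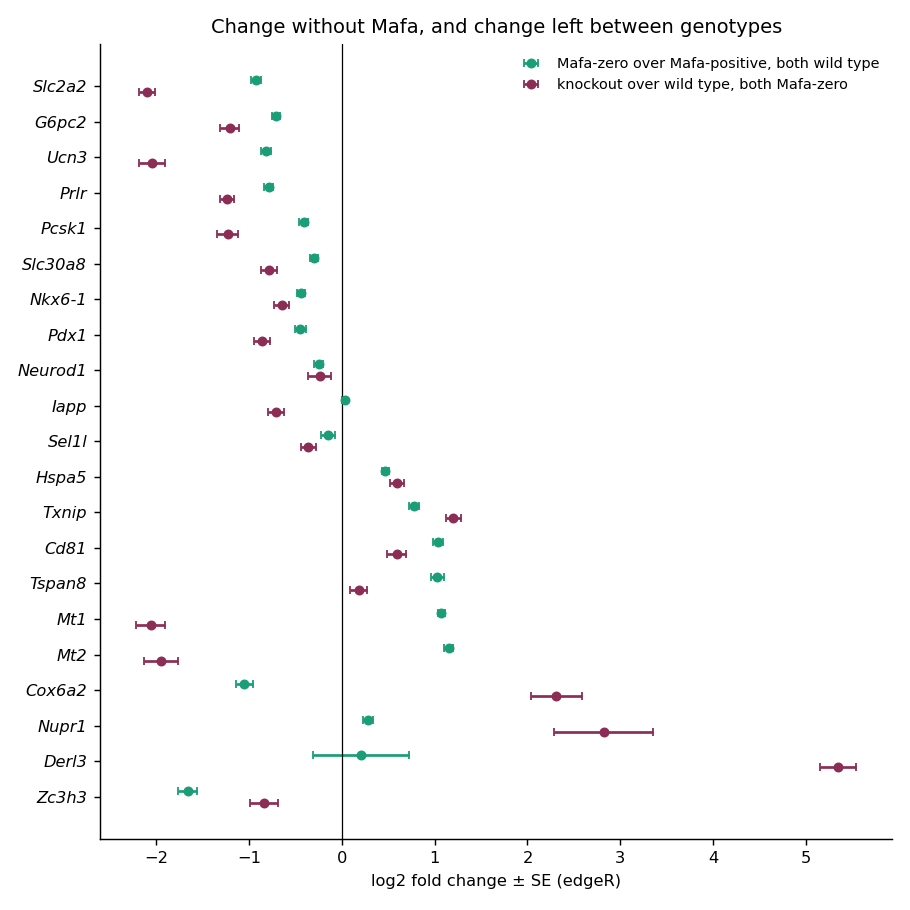
Log2 fold change ± SE from edgeR (x axis) of 21 genes for Mafa-zero over Mafa-positive wild type beta cells and for Mafa-zero knockout over Mafa-zero wild type beta cells. Slc2a2 is negative in both (-0.93 and -2.10), Derl3 stands far from 0 in the second alone (5.35), and Mt1 and Cox6a2 have opposite signs.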

How the data were processed

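The authors deposited a table of UMI counts for each of 4 libraries, genes by cells. Per the submitters' processing notes, the authors used Cell Ranger 3.0.0, Seurat 2.3.4 and mm10; these counts are not normalized. Gene coordinates come from GENCODE vM21 (GRCm38) by symbol, sequences from RefSeq (GRCm38.p6).

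Members and lists were chosen with earlier results of these data known. Cells were picked by the limits stated above, matched on total UMIs within 10% in the same library (for the knockout, in each knockout library), and their counts summed per library and group. The sums went into edgeR 4.0.16 under R 4.3.3: TMM factors, the filterByExpr filter, a quasi-likelihood test and a Benjamini-Hochberg adjusted p under 0.05 as the call. Mafa, Ins1, Ins2, Gcg, Sst and Pyy, which chose the cells, were fitted but never counted. Iapp and Ppy were counted. In the comparison within the wild type, the library is a block because both groups come from it; 2 libraries a genotype leave few degrees of freedom. Doublets were scored with Scrublet in scanpy 1.11.5 and kept. Thinning drew 10000 UMIs per cell; all compared cells have that many. Macrophages and endothelial cells for background held at least 50 marker UMIs. The likeness used TMM-scaled log2 values with a prior count of 2, for genes averaging 5 CPM or more.

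Named genes are a fixed panel, the 10 largest called changes each way at 50 or more CPM of all UMIs with the same sign in both libraries, and up to 3 called members of each list; not all are printed, and some are not reported here. Alternatives were DESeq2 1.42.0, limma-voom (limma 3.58.1), library size only, other filters, depth and insulin limits, matching, no block, and leaving out each library. Another 3 were chosen after seeing the data: Ppy and Pyy at most 10 UMIs, no cycling cells, and cells with no sign of another type. The pipeline was tested on simulated data. Other software was matplotlib 3.10.9, anndata 0.12.19, pandas 2.3.3, SciPy 1.17.1 and NumPy 2.4.6 on Python 3.11.15.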

Additional observations from a re-analysis of the deposited data

How the results depend on the processing

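In the comparison within the wild type, the tally of higher and lower genes was 425 and 364, and it moved to 32 and 41 with DESeq2, 15 and 17 with no replicate block (edgeR), 127 and 142 from 20000 UMIs, 139 and 158 with Ppy under 1% of UMIs, 268 and 172 with Ppy and Pyy at most 10 UMIs, and 55 and 60 in cells with no sign of another type. Without cells that carry markers of other types it was 312 and 229, and with no depth matching 536 and 592. Knockout against Mafa-positive cells gave 2090 and 1982, and 1202 and 1267 with DESeq2, 10777 and 207 by library size, 3178 lower with no depth matching, and 1337 to 2196 higher and 1250 to 2321 lower when 1 library was left out, the least without knockout replicate 2. Both Mafa-zero groups gave 1429 and 1372, and 661 and 728 with DESeq2, 10200 and 141 by library size, 897 lower with no filter on low counts, and 1044 to 1422 higher and 961 to 1473 lower when 1 library was left out.

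With the replicate number as a block the knockout comparisons gave 2199 and 2077, and 1535 and 1467 for the Mafa-zero groups; the labels give the number alone, and deviations of same-numbered libraries correlated at 0.247 over 2 pairs. The shares of genes moving with the knockout change by at least 1 log2 unit were 88.5% (lower, wild type 1), 43.3% (higher, wild type 1) and 59.3% (higher, wild type 2) by library size, where 36.6% and 47.7% of all genes were higher; 82.6% and 79.6% (lower) at an insulin share of at least 40%; and 74.6% (higher, wild type 1) from 20000 UMIs.

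Of the single genes' values within the wild type, 1303 kept direction and side of the threshold, 276 lost the call, 5 gained it and 25 changed sign. In cells with no sign of another type the log2 change was -0.36 for Apoe, -0.22 for Cd79a, -0.45 for Crybb3, 3.82 for Npy, 0.62 for Spp1 and 0.17 for Ttr. Without cells carrying markers of other types it was -0.36 for Apoe, -0.07 for Cd79a, 0.86 for Npy and 0.03 for Ttr. With no depth matching it was -0.03 for Clu, -0.15 for Derl3, -0.08 for Iapp, -0.10 for Mki67 and -0.05 for Nupr1. Matching outside insulin gave -0.02 for Iapp and 0.12 for Npy, Ppy and Pyy at most 10 UMIs gave 1.66 for Npy, and leaving out cycling cells gave -0.28 for Hspb1. Without wild type replicate 1 and without wild type replicate 2, the values were -0.25 and 0.68 for Derl3, -0.30 and 2.58 for Hspb1, -0.01 and 0.03 for Iapp, 0.39 and -0.02 for 1810008I18Rik, -1.66 and 1.14 for Npy, and 0.58 and -0.33 for Nupr1. The cause of these changes was not tested, and leaving out a wild type library leaves 1 sum per group within the wild type, which gives a value and no test. Genes of few UMIs, such as Aldh1a3 and Neurog3, are limited by depth.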

Other observations

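Zc3h3, named after its values were seen, is the gene next to Mafa: it lies at chr15:75754430-75841915 of GRCm38 on the minus strand, 6.2 kb from Mafa at chr15:75745490-75748228 on the same strand. It encodes a zinc finger protein of messenger RNA export and had 27.4 and 22.8 CPM outside Ins1 and Ins2 in Mafa-zero cells, against 90.6 and 70.2 in Mafa-positive cells. Both Mafa-zero sums lay below both Mafa-positive sums, with a log2 change of -1.66 ± 0.102 (adjusted p 4.5e-56 by edgeR, 7.6e-11 by DESeq2, 0.0081 by edgeR without the block), and it was called in 18 of 18 alternatives. Among cells of 40000 to 60000 UMIs it stood at 22.5 CPM with no Mafa UMI and 166 with over 20 in wild type 1, and at 24.7 and 140 in wild type 2. Mafa-zero knockout cells had 12.5 and 15.4. Whether reads of 1 transcript were counted in both genes was not tested.

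Cell cycle genes were higher in Mafa-zero cells in 10 of 26 tested and lower in 1 (median log2 change 0.68), against 3.56% and 3.05% of all genes. DESeq2 called 2 of them higher and none lower, and edgeR without the block called none. A like share of cells held at least 2 cycle UMIs: 24.4% and 21.7% of Mafa-zero cells and 24.9% and 22.4% of Mafa-positive cells. All UMIs of Mki67, Top2a, Ube2c and Cenpf in Mafa-zero cells lay in 10 cells of each library. The 68 and 55 wild type cells that met every limit but had over 333 Pyy UMIs had median insulin shares of 50.9% and 47.2% and 57.3 and 40.6 CPM of Slc2a2, below the 165 and 177 of the Mafa-zero cells. Rbp4, a retinol carrier listed as a delta cell marker, had 258 and 157 CPM in Mafa-zero cells and 138 and 51.3 in Mafa-positive cells, and Fxyd3, a sodium pump regulator listed as a PP cell marker, 107 and 112 in Mafa-zero cells and 70.1 and 60.8 in Mafa-positive cells. The Rbp4 rise was not seen in wild type 1 among cells of 40000 to 60000 UMIs. There Rbp4 had 137 CPM with no Mafa UMI, within the 89.0 to 153 of cells grouped by higher Mafa counts. In wild type 2 it had 103 with no Mafa UMI, against 41.7 to 55.5 in such groups.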
